A study of Rattus norvegicus with 8 samples.

Results

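Soluble guanylate cyclase, the intracellular receptor for nitric oxide, was followed through its alpha subunit Gucy1a1 and its beta subunit Gucy1b1. The members were all probe sets whose platform annotation gives either symbol alone, and they were chosen for their role. This rule found both genes, of 4737 named by a symbol alone, through 2 of the 8799 probe sets in the table: rc_AA849036_at for Gucy1a1 and rc_AI233225_at for Gucy1b1. Both passed the filter on low signal. Each subunit therefore rests on a single probe set, with no second one of that symbol alone to set beside it.

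RNA came from primary smooth muscle cells grown out of explants of pulmonary arteries from adult Sprague-Dawley rats, with endothelium and adventitia removed, per the labels' protocols. The 4 groups were untreated cells and cells exposed for 1, 2 or 4 h to S-nitrosoglutathione (GSNO), a compound that releases nitric oxide, with 2 Affymetrix RG_U34A arrays in each group. The sources disagree on the GSNO concentration, which is 100 μmol/L in the series design and 100 mmol/L in the treatment protocol, and neither was taken as fact. The control group has no stated time and no vehicle is named, so time in culture and GSNO cannot be told apart. The series design speaks of 2 independent preparations without saying that the array number marks the preparation. The p-values therefore measure the spread between arrays, part of which may be technical.

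In smooth muscle, the alpha and beta subunits pair to form the enzyme. Nitric oxide binds a haem group carried by the beta subunit, and the enzyme then turns GTP into the second messenger cGMP. Cyclic GMP activates a protein kinase whose substrates lower cytosolic calcium and relax the vessel, and phosphodiesterases end the signal. Either subunit alone does not form a working enzyme, so the transcripts of both bear on how much receptor a cell can make.

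The genes for both subunits lie next to each other on rat chromosome 2, with no other protein-coding gene between them, in the RefSeq annotation of assembly GRCr8. The sequence just before each start site is shown because both transcripts were measured together over time. Each line gives the 250 bases before the start of 1 RefSeq transcript, 5′ to 3′ on the minus strand of chromosome 2, with capitals marking GGGCGG (the Sp1 box) and CCAAT or its reverse complement.
Gucy1a1, chr2:169779624-169779873: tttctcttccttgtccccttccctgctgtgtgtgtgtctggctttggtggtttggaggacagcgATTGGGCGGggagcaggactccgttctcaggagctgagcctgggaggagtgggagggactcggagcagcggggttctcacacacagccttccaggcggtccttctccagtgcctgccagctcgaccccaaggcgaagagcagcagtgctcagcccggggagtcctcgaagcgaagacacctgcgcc
Gucy1b1, chr2:169696988-169697237: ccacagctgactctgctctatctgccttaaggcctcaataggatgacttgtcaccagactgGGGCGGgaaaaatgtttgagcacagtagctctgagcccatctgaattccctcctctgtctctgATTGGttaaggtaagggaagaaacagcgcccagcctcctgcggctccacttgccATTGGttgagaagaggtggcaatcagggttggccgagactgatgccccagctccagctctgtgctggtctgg

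Both windows held GGGCGG and the reverse of CCAAT. In Gucy1a1 there was 1 match of each, and they overlapped. Gucy1b1 had 1 GGGCGG and 2 reversed CCAAT matches, none of them overlapping. On either strand, GGGCGG was found in 30.5% and CCAAT in 34% of the 33469 RefSeq windows of the same length, and 10.1% held both. The Gucy1b1 window also held 1 match to TGANNNNGC, a loose form of the core of the element bound by NRF2. This loose form was found in 34.7% of all windows, a share that does not count the stricter element. Neither window matched TATAAA (the TATA box, in 12.9% of windows), TGACGTCA (the cAMP response element, 1.59%), its shorter part TGACG (18.2%) or TGANTCA (the AP-1 site, 6.34%). The G and C content was 63.2% in Gucy1a1 and 54.8% in Gucy1b1, against a median of 51.2%. RefSeq lists 5 transcripts for Gucy1a1 and 3 for Gucy1b1, and the starts used here lie 737 and 73 bases inside the outermost start. Which start the cells used was not measured, and the matches are a description of these letters only.

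Signals were the array software's values on a linear intensity scale, with the arrays numbered 1 scanned on another day than those numbered 2. Array medians lay between 100.0 and 141.2 units. The floor for low signal was each array's 40th percentile, 57.2 to 91.0 units. The tested smooth muscle markers were bright. Signals of these 8 of 13 listed genes, Acta2, Myh11 and Tagln among them, summed to between 54102 and 89616 on the arrays. The desmin gene Des, also listed, was below the low-signal filter, at 24.6 and 23.0 in the control arrays. The 3 tested endothelial genes summed to between 261 and 586, and the endothelial receptor gene Kdr and the clotting factor gene Vwf were below the low-signal filter. For fibroblasts, 6 genes summed to between 18646 and 26144, most of it from the collagen genes Col1a1 and Col1a2.

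Gucy1b1 signal was far below control by 4 h. On the arrays numbered 1 it was 3249 in control, 3041 at 1 h, 2116 at 2 h and 315 at 4 h. On the arrays numbered 2 it was 2273, 2267, 1459.9 and 253. Both series were nearly flat over the first hour, lower at 2 h and lowest at 4 h, and the order of the groups was the same in each. As a percentage of the control array of the same number, the signal was 93.6% and 99.7% at 1 h, 65.1% and 64.2% at 2 h, and 9.71% and 11.1% at 4 h. The group means were 2761 ± 691 (SD, n = 2), 2654 ± 547, 1788 ± 464 and 284 ± 44.4.

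Gucy1a1 followed the same order of groups, from levels that differed more between the array numbers. On the arrays numbered 1 its signal was 1831 in control, 1626 at 1 h, 843 at 2 h and 108 at 4 h. On the arrays numbered 2 it was 3633, 3231, 2204 and 610.2. Within each number every later time was lower than the one before, while the 2 h array numbered 2 still read above the control array numbered 1. Relative to the control of the same number, the signal was 88.8% and 88.9% at 1 h, 46.0% and 60.6% at 2 h, and 5.90% and 16.8% at 4 h. The group means were 2732 ± 1274 (SD, n = 2), 2429 ± 1135, 1523 ± 962 and 359 ± 355. At 4 h the array numbered 1 was 1.89 times its 40th percentile and stood at the 51.5th percentile of that array, close to the floor for low signal.

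**Figure D1:**
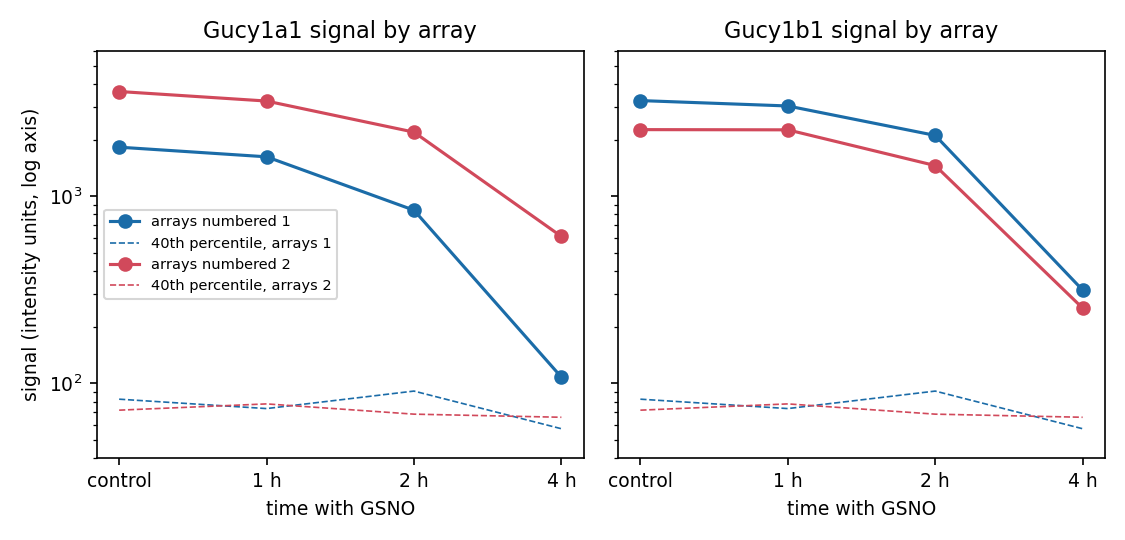
Signal of Gucy1a1 (left) and Gucy1b1 (right) on each array, on a log axis in intensity units, by time with GSNO (categories evenly spaced); circles joined by lines are arrays of the same number, and dashed lines are the 40th percentile of each array. Both genes are lowest at 4 h in each array number, Gucy1b1 at 315 and 253 and Gucy1a1 at 108 and 610.2.

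Between the array numbers the subunits differed in opposite directions. Gucy1a1 was on average 1.40 higher on the log2 scale on the arrays numbered 2 than on those numbered 1, with differences of 0.98 to 2.29 in the 4 groups. A larger mean difference in either direction was seen in 2.23% of the tested probe sets. For Gucy1b1 the same difference was -0.44, ranging from -0.53 to -0.30, and 35.6% of the probe sets had a larger one. The arrays of each number shared a scan day and a fluidics protocol. The arrays numbered 2 also shared 1 experiment record and 1 chip lot. Among the arrays numbered 1, control and 2 h shared a record, and 1 h and 4 h shared another. The 1 h array numbered 1 came from a different chip lot than the rest of that number. Whether the difference came from the cells or from the runs was not tested. Deviations from the group means correlated between arrays of the same number across the tested probe sets (0.387 to 0.569 in all 6 pairs of groups). Results are therefore given from a limma fit of all 8 arrays and, beside it, from that fit with a replicate block for array number, which leaves each fold change as it is and alters its error. Fold changes are of log2(signal + 21.1), and a probe set was called at an adjusted p under 0.05.

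At 1 h neither subunit passed the test. Gucy1b1 stood at -0.05 ± 0.30 (log2 fold change against control, SE; limma adjusted p = 1.00; 0.999 with the replicate block), with a 95% interval of -0.42 to 0.32 in the blocked fit. Gucy1a1 stood at -0.17 ± 0.77 (adjusted p = 1.00; 0.999 with the block), with a blocked interval of -0.82 to 0.48. For Gucy1a1 the change was -0.17 between the arrays of either number. Missing the threshold does not show that the levels were equal. Called lower at this time were 0.034% of the 5877 tested probe sets, and 0.204% with the block.

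At 2 h both subunits were below control in each array number, and neither passed after adjustment. Gucy1b1 stood at -0.62 ± 0.30 (adjusted p = 0.939; 0.0969 with the replicate block), with -0.61 and -0.63 between the arrays numbered 1 and 2. Its 2 h signals did not overlap the controls, which held in the lower direction for 17% of the tested probe sets. Gucy1a1 stood at -0.91 ± 0.77 (adjusted p = 1.00; 0.192 with the block), with -1.10 and -0.72 in the numbers 1 and 2, and its groups overlapped. The blocked 95% intervals before adjustment were -0.99 to -0.25 for Gucy1b1 and -1.56 to -0.26 for Gucy1a1. Called lower were 0.187% of the probe sets, and 0.97% with the block.

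At 4 h Gucy1b1 fell. Gucy1a1 was lower by a similar mean amount, which passed the test with the replicate block and did not pass without it. Gucy1b1 changed by -3.17 ± 0.30 (SE; adjusted p = 0.00229; 3.34e-06 with the block), with -3.28 and -3.07 between the arrays numbered 1 and 2 and a blocked interval of -3.55 to -2.80. Gucy1a1 changed by -3.19 ± 0.77 (adjusted p = 0.101; 1.33e-04 with the block), with -3.84 and -2.53 and a blocked interval of -3.84 to -2.54. Called lower were 0.579% of the probe sets without the block and 3.68% with it. Neither gene's 4 h signals overlapped its controls, which in the lower direction held for 27.5% of the tested probe sets.

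As ratios of signal without the offset, Gucy1b1 was 10.3-fold and 9.0-fold lower than the control of the same number at 4 h. The same ratios for Gucy1a1 were 17.0 and 5.95. Among the 5877 tested probe sets, 3 had a lower mean log2 fold change at 4 h than Gucy1a1 and 4 lower than Gucy1b1. Those below both were probe sets of Lbh and of Edn1, which encodes the precursor of the vasoconstrictor endothelin-1, and a probe set with no symbol here.

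**Figure D2:**
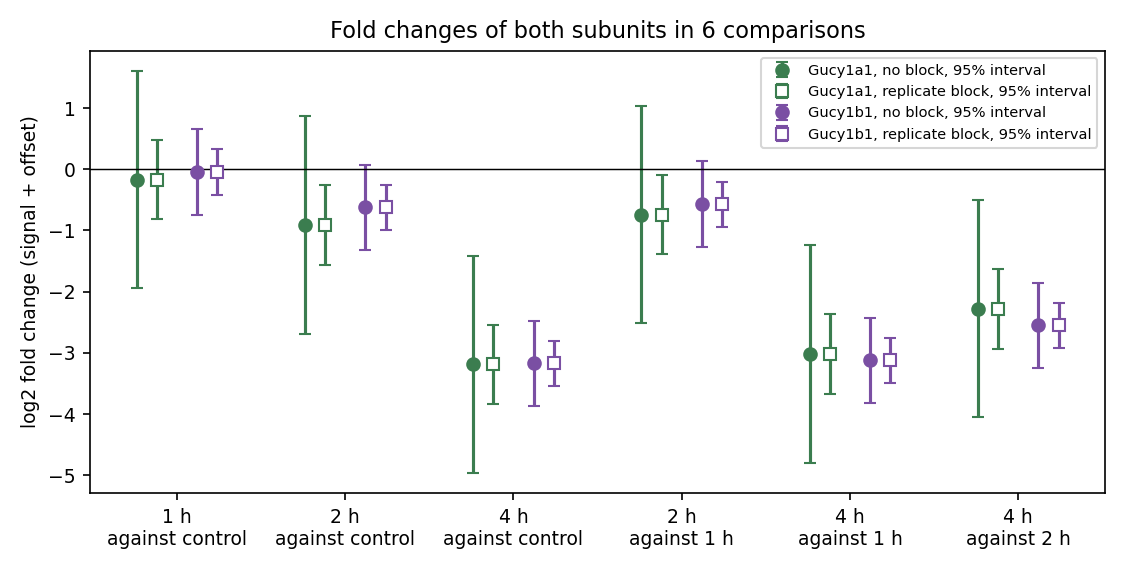
Log2 fold change of signal plus offset for Gucy1a1 (green) and Gucy1b1 (purple) in the 6 comparisons between groups of 2 arrays; filled circles are the fit without a block and open squares the fit with the replicate block, with bars for the 95% interval of each. The blocked bars are narrower around the same values, and the 4 h comparisons sit furthest from 0, at -3.19 for Gucy1a1 and -3.17 for Gucy1b1 against control.

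On the log2 scale most of the fall came after 2 h of exposure. In signal units, the mean of Gucy1a1 went from 2732 to 1523 by 2 h and then to 359, steps of similar size. Between 2 h and 4 h Gucy1b1 changed by -2.55 ± 0.30 (adjusted p = 0.164; 1.90e-04 with the replicate block) and Gucy1a1 by -2.28 ± 0.77 (adjusted p = 0.784; 0.0127 with the block). In this comparison limma called 0 probe sets in either direction, where 330 had an unadjusted p under 0.05, and with the block 0.34% were called lower. Without the 2 h array numbered 1 or 2, the blocked adjusted p of Gucy1a1 became 0.151 and 0.142, and it was 0.206 with the recorded experiment as the block. Without the offset, Gucy1b1 changed on average by -1.37 and -1.27 per hour on the log2 scale over this interval in the numbers 1 and 2, and Gucy1a1 by -1.48 and -0.93. Over the first hour the corresponding changes were -0.096 and -0.0038 for Gucy1b1 and -0.17 and -0.17 for Gucy1a1. The arrays read transcript levels, so synthesis and decay were not measured separately.

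Between 1 h and 4 h Gucy1b1 changed by -3.12 ± 0.30 (adjusted p = 0.012; 2.72e-05 with the replicate block) and Gucy1a1 by -3.02 ± 0.77 (adjusted p = 0.189; 5.18e-04 with the block). Called lower were 0.272% of the probe sets, and 2.45% with the block. The unblocked call for Gucy1b1 was lost without either 1 h array or either 4 h array, with adjusted p between 0.0555 and 0.0865. Between 1 h and 2 h neither passed: Gucy1b1 stood at -0.57 ± 0.30 (adjusted p = 1.00; 0.371 with the block) and Gucy1a1 at -0.74 ± 0.77 (adjusted p = 1.00; 0.638 with the block). No probe set was called lower there with or without the block, and 164 had an unadjusted p under 0.05, or 431 with the block. Ordered by level, control and 1 h were thus the closest neighbours, 2 h lay below them without a call, and 4 h lay below all of them with a call in the blocked fit. These comparisons share arrays and are not independent of each other.

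Over the 3 times together, limma's moderated F test called Gucy1b1 (adjusted p = 0.00663; 8.56e-06 with the replicate block). Gucy1a1 did not pass it (adjusted p = 0.268) and passed with the block (3.53e-04). This test called 1.14% of the probe sets, and 5.94% with the block.

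The fall was not clearly deeper in one subunit than in the other. The log2 fold change of Gucy1a1 minus that of Gucy1b1 was -0.07 and -0.16 at 1 h in the array numbers 1 and 2, and -0.49 and -0.08 at 2 h. At 4 h it was -0.56 in the number 1 and 0.53 in the number 2, with a mean of -0.01. With 2 pairs of arrays no test of this difference was run.

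The other genes of the pathway came from a list of 60 besides the members, chosen with earlier results of these data known. Of these, 39 had a probe set with their symbol alone and 28 passed the low-signal filter, so the counts cover less than the whole pathway. At 1 h and 2 h limma called 0 of the 28 against control, where 0 and 1 had an unadjusted p under 0.05. At 4 h it called 1 as lower, Pln, and none as higher, and with the replicate block 3 were lower and 2 higher. Over all tested probe sets, 0.579% were called lower at 4 h (3.68% with the block) and 0.953% higher (4.25% with the block). At 2 h, where the blocked fit called 1 of the 28 higher, 0.783% were called higher (2.19% with the block). The median log2 fold change of the 28 at 4 h was -0.24, and that of all tested probe sets was -0.16. No probe set with the symbol alone was found for the cGMP-dependent kinase gene Prkg1, for the alpha subunit gene Gucy1a2 or for Elavl1, which encodes the RNA-binding protein HuR, known to bind and stabilise guanylate cyclase transcripts.

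Among relatives of the receptor, Gucy1b2, another beta subunit gene, had low signals: 86.3 and 94.6 in the control arrays, 80.9 and 66.3 in the 4 h arrays. Its change at 4 h was -0.24 ± 0.34 (adjusted p = 0.848), and it was 0.013 under quantile normalization. The fixed list also held 11 genes for membrane guanylate cyclases, natriuretic peptides and their receptors. Of these, 7 were tested, all 7 had values below 0 at 4 h, and their median was -0.73. Some of the 7 read near the floor, such as Gucy2d (96.9 and 44.1 in the control arrays) and Nppa (60.4 and 52.1). Gucy2e and Nppa were close to 0, at -0.08 and -0.17. Of all tested probe sets, 64.6% had values below 0 at this time. With the replicate block 1 of the 7 was lower, Npr3, which encodes the receptor that clears natriuretic peptides. Its signals were 2233 and 2961 in control and 897 and 1158 at 4 h, a change of -1.32 ± 0.37 (adjusted p = 0.158; 0.00343 with the block). Its other tested probe set stood at -1.76 ± 0.38 (adjusted p = 0.0745; 0.00634 with the block). Npr1, which encodes a membrane guanylate cyclase for atrial natriuretic peptide, stood at -0.73 ± 0.37 (adjusted p = 0.538; 0.0827 with the block).

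Nos2, which encodes the inducible nitric oxide synthase, stood at 0.55 ± 0.31 at 4 h (adjusted p = 0.582; 0.280 with the replicate block). Its other tested probe sets differed in sign, at -0.22 and 0.39, without a call in either fit. The endothelial synthase gene Nos3 stood at -0.46 ± 0.60 (adjusted p = 0.832; 0.593 with the block). The main cGMP-hydrolysing phosphodiesterase of vascular smooth muscle is Pde5a, which had low signals, 166 and 94.9 in the control arrays and 88.9 and 128 in the 4 h arrays. Its change was -0.20 ± 0.40 (adjusted p = 0.910), with opposite signs in the array numbers. Pde3b encodes a phosphodiesterase that hydrolyses cAMP and that cGMP inhibits. Its signals were 120.3 and 157 in control, 237 and 481 at 2 h, and 222 and 509 at 4 h, all the GSNO arrays of these times being above both controls, which held for 12.9% of the tested probe sets at 2 h and 13.4% at 4 h. The change at 4 h was 1.18 ± 0.54 (adjusted p = 0.480; 0.0327 with the block), and it was the 1 of the 5 tested phosphodiesterase genes that the blocked fit called. Its adjusted p was 0.0626 when the recorded experiment was the block, and without the 4 h array numbered 2 or 1 its change was 0.61 and 1.74.

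Among targets of the cGMP kinase and cGMP-gated channels, 8 of 14 genes were tested and 7 had values below 0 at 4 h, with a median of -0.47, beside the 64.6% below 0 among all tested probe sets. Pln fell, the gene for phospholamban, which restrains the calcium pump of the sarcoplasmic reticulum until it is phosphorylated. Its signals were 1560.2 and 705 in control, 1083 and 608 at 1 h, 916 and 351 at 2 h, and 150 and 101 at 4 h. The order of the groups matched that of both cyclase subunits in each array number. The 4 h signals did not overlap the controls, as in 27.5% of the tested probe sets in the lower direction. The change at 4 h was -2.89 ± 0.54 (adjusted p = 0.0448; 7.44e-05 with the replicate block), and the unblocked call was lost in 6 of the 8 fits without 1 array, with adjusted p up to 0.285 without the control array numbered 1.

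Itpr1 encodes the inositol trisphosphate receptor, a calcium release channel that the kinase restrains through a partner protein. Its leading probe set read 853 and 1201 in control, 893 and 1091 at 1 h, 768 and 1103 at 2 h, and 327 and 586 at 4 h. It was lower at 4 h in the blocked fit, at -1.17 ± 0.35 (adjusted p = 0.188; 0.00521 with the block), and its adjusted p was 0.0581 with the recorded experiment as the block. Its other 3 tested probe sets stood between -1.37 and -0.89 without a call in either fit. Probe sets of Kcnmb1, a subunit of the large-conductance potassium channel, disagreed, at 0.04 ± 0.61 and -1.51 ± 0.99 (adjusted p = 0.994 and 0.637), neither called.

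Among genes for regulators of the cyclase and for GSNO metabolism, 5 of 9 were tested. Hsp90ab1, a chaperone that binds the cyclase, stood at 0.29 ± 0.27 at 4 h (adjusted p = 0.751), and Cyb5r3, which encodes a reductase that restores the haem iron of the cyclase, stood at 0.18 ± 0.23 (adjusted p = 0.829). Adh5, the GSNO reductase gene, stood at 0.20 ± 0.27 (adjusted p = 0.836). Txnrd1, the gene for thioredoxin reductase, which breaks down GSNO, was higher at 4 h in the blocked fit. Its signals were 1944 and 2461 in control, 3303 and 4996 at 2 h, and 4968 and 6576 at 4 h, with no overlap between controls and either time, as in the 12.9% and 13.4% of probe sets given above. The change at 4 h was 1.38 ± 0.33 (adjusted p = 0.0947; 4.97e-04 with the replicate block), and its other probe set stood at 2.14 ± 0.43 (adjusted p = 0.0609; 5.00e-05 with the block).

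**Figure D3:**
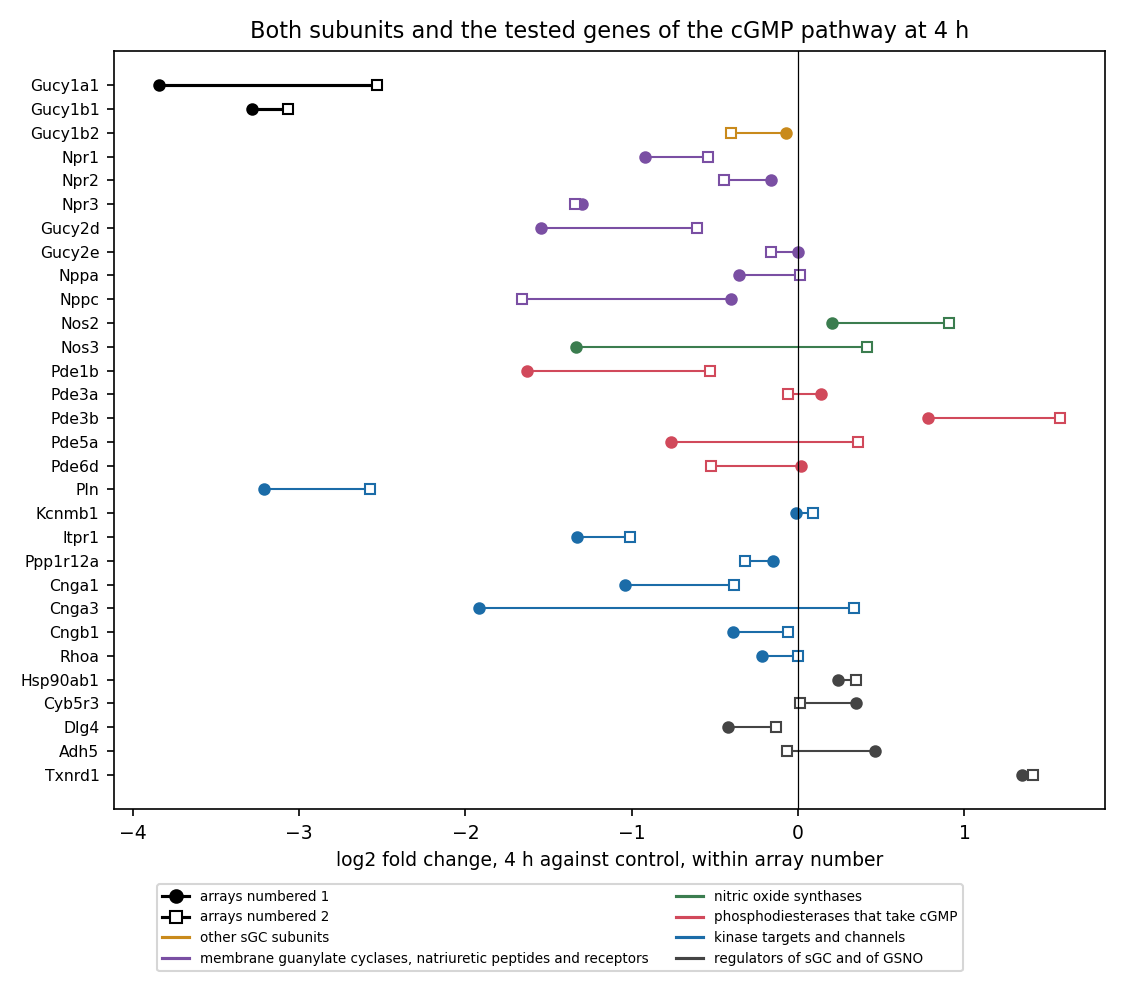
Log2 fold change at 4 h against control for both subunits (black) and the 28 tested genes of the cGMP pathway, coloured by role; filled circles compare the arrays numbered 1, open squares the arrays numbered 2, and a line joins the pair. Gucy1a1, Gucy1b1 and Pln are the genes below -2 in both array numbers, while Pde3b, Txnrd1, Nos2, Hsp90ab1 and Cyb5r3 are above 0 in both.

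Likeness of pattern was measured by Pearson's r of log2 values over the 8 arrays, among 4839 tested probe sets of other genes with 1 symbol. It is given as a description, since all genes share these arrays and the difference between array numbers. The genes most like Gucy1a1 were Bmp3 (r = 0.998), Itpr1 (0.987), Vgll3 (0.977), Flot1 (0.976) and Pld2 (0.976). Bmp3, which encodes a bone morphogenetic protein, had signals of 734 and 1166 in control, 608 and 1090.5 at 1 h, 365 and 854 at 2 h, and 62.9 and 244 at 4 h. It was thus higher on the arrays numbered 2 in each group and lowest at 4 h, as Gucy1a1 was, and its change at 4 h was -2.67 ± 0.61 (adjusted p = 0.0835; 2.38e-04 with the replicate block). The other 4 stood between -1.63 and -0.81 at 4 h. Their limma adjusted p ran from 0.172 to 0.318, and from 0.00521 to 0.0433 with the replicate block. Genes picked by r on these same arrays follow the member's course by choice, so their lower values at 4 h are no separate result.

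The genes most like Gucy1b1 were Schip1 (r = 0.973), Tnfrsf11b (0.970), Pln (0.963), Rala (0.961) and Plpp1 (0.956). Tnfrsf11b encodes osteoprotegerin, a secreted decoy receptor. Its signals were 4974 and 3732 in control, 4582 and 3469 at 1 h, 1894 and 2273 at 2 h, and 522 and 584 at 4 h. The fall at 4 h was close in size to that of Gucy1b1, at -2.92 ± 0.26 (adjusted p = 0.00190; 2.92e-05 with the replicate block), and the 2 h arrays were further below control. Schip1, at -1.57 ± 0.29, passed with an adjusted p of 0.0435, and none of the 8 fits without 1 array kept that call. Plpp1, at -1.74 ± 0.23, passed with an adjusted p of 0.00964 and lost its call in 3 of the 8 fits without 1 array, those without either control array or the 4 h array numbered 2 (up to 0.0820). Rala, at -0.44 ± 0.22, did not pass (adjusted p = 0.536).

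The subunits were less like each other than like these genes while the difference between array numbers was kept in. Their r was 0.771, which placed Gucy1b1 at rank 433 in likeness to Gucy1a1 and Gucy1a1 at rank 285 in likeness to Gucy1b1. With the mean of each array number removed, r between the subunits was 0.980, with ranks of 16 and 6. Removing those means kept Bmp3 as the gene most like Gucy1a1 (0.998), followed by Nexn, Prnp, Tgfb3 and Pld1. For Gucy1b1 it put Agtr1a, the angiotensin II receptor gene, first (0.993), followed by Pln, Bmp3, Ctf1 and Itpr1. Bmp3 for Gucy1a1 and Pln for Gucy1b1 were thus among the 5 by either measure, and the other names depended on it.

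**Figure D4:**
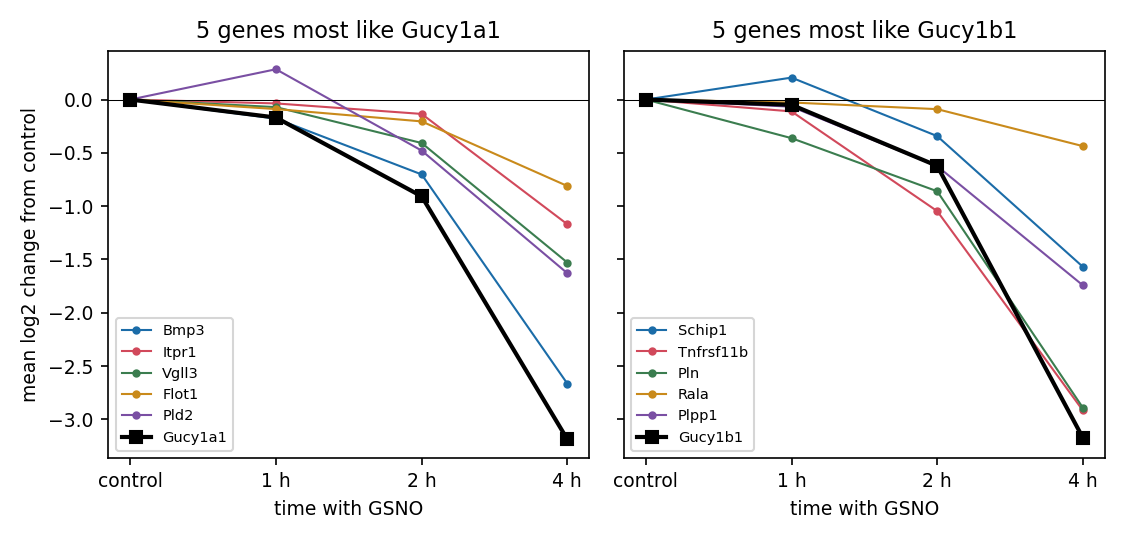
Mean log2 change from control of Gucy1a1 (left, black squares) and Gucy1b1 (right, black squares) and of the 5 genes with the highest Pearson r over the 8 arrays (coloured lines), by time with GSNO (categories evenly spaced). Both subunits stay near 0 at 1 h and reach -3.19 and -3.17 at 4 h, Bmp3 reaching -2.67, Tnfrsf11b -2.92 and Pln -2.89.

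The tested markers of smooth muscle stayed bright while the subunits were low. The summed signal of the 8 tested smooth muscle markers was 62884 to 89616 in control and 54102 to 84715 at 4 h, the ranges overlapping. At 4 h limma called 0 of them, none with an unadjusted p under 0.05, and with the replicate block 1 was lower, the myosin heavy chain gene Myh11 (-0.60, adjusted p = 0.0434; 0.128 with the recorded experiment as the block). These counts take the leading probe set of each gene. The sums came mostly from Acta2, Tagln, Tpm1 and Myl9, so they say little of the dimmer markers. On the leading probe sets, 5 of the 8 stood below 0 at 4 h. Their median log2 fold change was -0.19, beside -0.16 over all tested probe sets. Cald1 stood at -0.51 and the other Acta2 probe sets at -0.58 and -0.23, without a call in either fit. The other Myh11 probe sets stood at -0.30 and -0.05, without a call in either fit. Another Tpm1 probe set read 177 and 357 in control and 20.2 and 99.6 at 4 h. Its change was -1.96 ± 0.56 (limma adjusted p = 0.172; 0.0207 with the replicate block), and the leading Tpm1 probe set stood at -0.28 (0.829; 0.363). In bulk RNA, fewer cells of a type and less RNA per cell cannot be told apart. Of the 6 tested fibroblast genes, 1 was called lower at 4 h, decorin (Dcn), through its leading probe set at -2.42 (adjusted p = 0.0452; 0.0738 to 0.245 in 6 of the 8 fits without 1 array). That probe set read 170 and 200 in control, 16.1 and 25.9 at 1 h, 158 and 372 at 2 h, and 16.0 and 18.5 at 4 h. It was thus low at 1 h and not at 2 h, a course that the subunits did not show. Another tested Dcn probe set stood at -0.35 ± 0.72 (adjusted p = 0.914), at -1.47 and 0.78 in the array numbers 1 and 2. The summed signal of the 6 genes was 22846 to 26144 in control and 19392 to 22769 at 4 h. Sums for endothelium (377 to 586 in control, 261 to 485 at 4 h, 3 genes), leukocytes (447 to 697 in control, 355 to 657 at 4 h, 3 genes), lung epithelium (637 to 856, then 453 to 722, 3 genes) and heart and skeletal muscle (538 to 831, then 429 to 489, 5 genes) were low, with 0 genes called by limma at 4 h with or without the block and 1 gene, of the muscle list, at an unadjusted p under 0.05. The part of the fibroblast and heart muscle lists in the fall of the subunits was not tested.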

How the data were processed

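Signals of 8799 probe sets on 8 one-colour Affymetrix RG_U34A arrays (2 per group) were used on the linear intensity scale on which the authors deposited them. The mean of each array, with 2% trimmed at each end, was 500.7 to 501.0. The software's version and settings beyond this are not given in the sources used here, and single probe signals and detection calls were not used here. Control features (59) were left out. Probe sets at or above an array's 40th percentile on at least 2 arrays (5877) were tested on log2(signal + 21.1), the offset being the median over arrays of the 20th percentile.

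One fit of the 4 groups was made with limma 3.58.1 in R 4.3.3 (lmFit, eBayes with trend, 4 residual degrees of freedom), with two-sided p-values adjusted by Benjamini-Hochberg over all tested probe sets and called under 0.05. The fit without a block was tested on simulated data, with changes added at 4 h and noise independent between arrays. The simulation held no difference between array numbers, and the blocked fit was not tested in this way. The array numbers come from the titles and were taken to pair the arrays, since same-numbered deviations correlated at over 0.1 in all 6 pairs of groups, so the fit with array number as a block (3 residual degrees of freedom) is given beside it. No 2 arrays of the 28 pairs held identical values.

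Symbols came from the platform annotation (7018 probe sets with 1 symbol, 308 with several, 1473 with none), and 6994 of the 7018 gene IDs were found in RefSeq's GRCr8 table. A pathway gene was represented by its tested probe set with the highest mean, and the genes named are the members, the pathway and marker lists, and the 5 most like each member. Genes ranked above the members at 4 h and genes most alike with array-number means removed were named after their values were seen. The members and lists were chosen with earlier results of these data known. The alternatives were other offsets, no filter, 2 other scalings, blocks, no trend, only the groups compared and leaving out each array. Promoter sequences are RefSeq's, and no genome was used.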

Additional observations from a re-analysis of the deposited data

How the results depend on the processing

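Of 204 alternative values for the 2 subunits, 6 reversed direction, all of them changes at 1 h: with the recorded experiment as a block Gucy1a1 was 0.063 and Gucy1b1 0.031. Leaving out each array in turn gave -0.66 to 0.32 for Gucy1a1 and -0.31 to 0.21 for Gucy1b1 at 1 h, -1.59 to -0.23 and -0.89 to -0.36 at 2 h, and -4.33 to -2.04 and -3.43 to -2.92 at 4 h. Gucy1b1 kept its call at 4 h in all 8 of these fits (adjusted p 0.00448 to 0.0234), and Gucy1a1 passed in 1, without the 4 h array numbered 2 (0.0492, range 0.0492 to 0.413). The ranges were -4.16 to -1.87 (Gucy1a1) and -3.33 to -2.91 (Gucy1b1) from 1 h to 4 h, -3.42 to -1.13 and -2.82 to -2.29 from 2 h to 4 h, -1.42 to -0.06 and -0.84 to -0.31 from 1 h to 2 h, and 0.121 to 0.861 and 0.0124 to 0.0463 for the adjusted p of the F test. With the replicate block these came past the threshold: Gucy1a1 at 4 h (-3.19), from 1 h (-3.02) and from 2 h (-2.28), its F test (3.53e-04), and Gucy1b1 from 2 h to 4 h (-2.55). With the recorded experiment as a block, Gucy1a1 passed at 4 h (-2.96, adjusted p = 0.00828) and from 1 h (-3.02), and Gucy1b1 from 2 h (-2.47). The block changed no other call of the subunits. With only the 2 groups compared in the fit, the call of Gucy1b1 from 1 h to 4 h was lost (-3.12, adjusted p = 0.0514). In blocked fits without each array, an alternative added after the data were seen, Gucy1a1 at 4 h kept its call in all 8 (-3.78 to -2.60, adjusted p up to 0.00420), Gucy1b1 at 4 h in all 8 (-3.27 to -3.08) and from 2 h to 4 h in all 8 (-2.65 to -2.46), and Gucy1a1 from 2 h to 4 h in 6 (-2.87 to -1.69). Probe sets called at 1 h numbered 31, or 79 with the replicate block and 5 to 25 without 1 array. At 2 h they numbered 57, or 186 with the replicate block, 152 with the experiment block, 37 with only the groups compared and 19 to 52 without 1 array. At 4 h they numbered 90 (56 higher, 34 lower), or 466 with the replicate block, 165 with the experiment block and 30 to 87 without 1 array. Common median scaling, which moved the median of all tested probe sets at 4 h from -0.16 to 0.04, gave 83 higher and 21 lower, with Gucy1a1 at -2.99 and Gucy1b1 at -2.97. From 1 h to 2 h there were 0, or 1 after quantile normalization, 2 with the block and 0 without any 1 array. From 1 h to 4 h there were 28, or 300 with the replicate block, 201 with the experiment block, 4 without the trend, 0 with only the groups compared and 0 to 24 without 1 array. From 2 h to 4 h there were 0, or 32 with the replicate block, 1 with the experiment block and 0 to 1 without 1 array. Among other genes named, Gucy1b2 (0.013 after quantile normalization) and Rhoa (0.11 with common median scaling) reversed at 4 h, the fits without 1 array reached both signs for Pde3a (-0.28 to 0.36), Pde5a (-0.55 to 0.14), Kcnmb1 (-0.59 to 0.67), Rhoa (-0.24 to 0.016), Adh5 (-0.093 to 0.49) and Nos3 (-1.45 to 0.53, and 0.11 with the experiment block), and Pln lost its call with an offset of 50 (0.0512), quantile normalization (0.0858) and no trend (0.0742). With the recorded experiment as the block the calls that the replicate block gave to Pde3b (adjusted p = 0.0626), Itpr1 (0.0581) and Myh11 (0.128) were not made. Dcn lost its call with an offset of 50 (0.0602), no filter (0.05001), common median (0.0545) or quantile scaling (0.0630) and only the groups compared (0.0615). Except where a sentence names fewer groups or samples, the cause of these changes was not tested. Each gene rests on 1 probe set and each group on 2 arrays, which limits the precision, and signals near the floor, such as that of Gucy1a1 on the 4 h array numbered 1, give the least certain ratios.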
